A study of Mus musculus with 6 samples.

Results

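Klhl40 encodes a kelch-repeat protein of striated muscle, and 9 mouse genes are described here: Klhl40, its relative Klhl41, and the skeletal muscle genes Neb, Lmod3, Myog, Acta1, Ckm, Tnnt3 and Mylpf. The question was whether the Klhl40 signal moved together with those of other skeletal muscle genes. The members were every probe set whose platform gene symbol was 1 of these 9, dim ones included. They came to 10 probe sets for 9 of the 18193 genes named on the array, with 2 probe sets for Ckm and 1 for each of the other 8 genes. The members were chosen by gene function around Klhl40, which was itself chosen by its high signal on the tumor arrays, so the tumor against wild-type values of the members are given as a description, without a test.

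The series holds 3 granulosa cell tumors of Smad1/5/8 mutant mice, 1 array each, and 3 samples of wild-type granulosa cells, the follicle cells that surround the oocyte. The Smads named in the mutant carry signals of bone morphogenetic proteins. The wild-type cells came from C57BL/6J;129S5/SvEvBrd females of 21 days, collected 44 to 46 hours after an injection of PMSG, a gonadotropin preparation that stimulates follicle growth, and each wild-type sample pooled 2 to 3 females. The tumors were untreated and are described as independent of one another. How the Smad genes were mutated, in which cells, as well as strain and age of the mice with tumors, is not stated in the sources used here. Whole tumor tissue was thus set against isolated, primed cells, and genotype, tissue makeup, priming, handling and array signal software cannot be told apart. In such tissue, fewer cells of a type and less RNA per cell cannot be told apart either. Nothing in the labels ties the numbers of tumors and wild-type samples to each other, and p-values measure the spread between these samples.

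Skeletal muscle contracts by sliding thin filaments of actin along thick filaments of myosin. Klhl40 belongs to a family of proteins with a BTB domain and kelch repeats, many of which serve as substrate adaptors of the Cul3 ubiquitin ligase. In mouse muscle, Klhl40 instead stabilises the thin-filament proteins nebulin (Neb) and leiomodin 3 (Lmod3), and loss of KLHL40, KLHL41, NEB, LMOD3 or ACTA1 function causes nemaline myopathy in people. Myog is a transcription factor that drives myoblasts to differentiate, Acta1 is the actin of skeletal muscle thin filaments, Ckm the muscle creatine kinase, Tnnt3 the troponin T of fast fibres and Mylpf their regulatory myosin light chain.

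RefSeq promoters of assembly GRCm38.p6, 250 bases before to 50 after the annotated start, were at hand for 6 of the 9 members. Those of Klhl40, of its relative Klhl41, of the muscle standard Acta1 and of Zfp651, the gene next to Klhl40, are printed because the Klhl40 and Zfp651 signals were higher in all 3 tumors while those of Klhl41 and Acta1 overlapped between the groups. Capitals mark each E-box CANNTG, the motif that myogenin and its relatives bind, which reads the same on both strands. They lie at chr9:121777357-121777656 (+), chr2:69669870-69670169 (+), chr8:123894726-123895025 (-) and chr9:121759783-121760082 (+), each written on the strand of its gene.
Klhl40: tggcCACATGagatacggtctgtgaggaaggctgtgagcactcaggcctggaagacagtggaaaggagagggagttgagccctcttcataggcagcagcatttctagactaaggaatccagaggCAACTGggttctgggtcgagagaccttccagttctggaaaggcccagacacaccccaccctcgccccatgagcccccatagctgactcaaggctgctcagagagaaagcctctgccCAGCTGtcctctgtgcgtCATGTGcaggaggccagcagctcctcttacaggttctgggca
Klhl41: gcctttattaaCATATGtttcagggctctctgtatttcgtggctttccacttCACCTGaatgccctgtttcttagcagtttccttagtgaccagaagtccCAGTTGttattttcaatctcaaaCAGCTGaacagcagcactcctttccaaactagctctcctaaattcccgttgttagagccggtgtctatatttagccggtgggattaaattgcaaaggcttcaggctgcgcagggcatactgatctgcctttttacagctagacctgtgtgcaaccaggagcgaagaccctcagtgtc
Acta1: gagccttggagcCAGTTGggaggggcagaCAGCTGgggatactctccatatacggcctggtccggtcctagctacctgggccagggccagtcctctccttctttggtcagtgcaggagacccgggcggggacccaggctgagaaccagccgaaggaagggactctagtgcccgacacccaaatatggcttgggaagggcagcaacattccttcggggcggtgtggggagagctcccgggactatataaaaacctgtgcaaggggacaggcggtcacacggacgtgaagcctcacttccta
Zfp651: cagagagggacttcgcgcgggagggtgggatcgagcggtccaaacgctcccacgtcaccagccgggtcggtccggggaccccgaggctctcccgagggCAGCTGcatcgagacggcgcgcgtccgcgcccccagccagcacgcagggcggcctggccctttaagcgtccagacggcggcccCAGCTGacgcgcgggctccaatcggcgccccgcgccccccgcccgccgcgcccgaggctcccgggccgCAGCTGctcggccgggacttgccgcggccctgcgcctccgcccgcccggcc
The Klhl40 window held 4 E-boxes, 1 of them CAGCTG, and no MEF2 site or CArG box. The Klhl41 window also held 4 E-boxes with 1 CAGCTG, and 1 MEF2 site. That of Acta1 held 2 E-boxes with 1 CAGCTG, and 1 CArG box, and that of Zfp651 held 3 E-boxes, all 3 of them CAGCTG. All 6 member windows held an E-box and 5 held CAGCTG, which is contained in CANNTG, while 72.31% of all 32851 RefSeq promoters held an E-box, 16.3% CAGCTG, 3.187% a MEF2 site and 1.629% a CArG box. Every motif was searched on both strands, and a match describes letters, not a bound site.

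Granulosa genes were measurable in both groups, and 1 tumor stood apart from the others. Each array had 22599 to 25049 probe sets with signals of at least 100. Of 14 granulosa genes tested, 6 fell and 2 rose in tumors, where 12.6% of all tested genes fell and 14.5% rose. Inhba, an activin subunit gene, fell by 5.42 in log2 signal (adjusted p = 0.000805 in limma, SE 0.48, n = 3 per group). Wt1, on the same list, rose by 2.23 (adjusted p = 0.00119 in limma, SE 0.23). Summed signals of markers of other cell types were higher. Those of 10 macrophage genes were 13154 to 15834 in tumors and 2228 to 2599 in wild-type samples. Those of 10 endothelial genes were 6189 to 13062 and 2245 to 3193, and those of 10 fibroblast and matrix genes 48361 to 73459 and 24050 to 28216. By gene, limma called 10 macrophage, 4 endothelial and 8 fibroblast and matrix genes higher. Sox18 alone gave 2085 to 5285 of the endothelial tumor sums. Fbln1, a matrix gene, fell by 1.69 (adjusted p = 0.00137 in limma, SE 0.18). For 8 adipocyte genes on the array the sums were 29709, 2412 and 33509 in tumors 1, 2 and 3, against 5734, 6220 and 4769 in the wild-type samples. Adipoq, the adiponectin gene of fat cells, read 8446, 52.6 and 8410 in tumors 1, 2 and 3 and 2.10 to 25.3 in wild-type samples, and tumor 2 was far below the other tumors. Fabp4, a fatty acid carrier of fat cells and macrophages, read 12178, 746 and 18320 in tumors 1, 2 and 3 and 85.8 to 156 in wild-type samples. Most of the wild-type sums came from Lpl, a lipase gene, at 4894, 5626 and 3860. The log2 differences of the members are therefore also given without tumor 2.

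Klhl40 was bright in every tumor and dim in every wild-type sample. Its probe set read 3645, 5170 and 2046 in tumors 1, 2 and 3, against 65.5, 14.1 and 19.4 in the wild-type samples. The groups did not overlap. Mean signals were 3620 ± 1562 in tumors and 33.0 ± 28.3 in wild-type samples (SD, n = 3 each). With each wild-type array set to the signal minimum of 100, tumor Klhl40 was at least 33.8-fold higher. The difference on the log2(signal + 32) scale was 5.80, and 5.49 without tumor 2. Since all wild-type values lay below 100, its size depends on the pseudocount, with 4.73 for a pseudocount of 100 and 6.95 for 1. Among all probe sets of an array, Klhl40 stood at percentiles 95.9, 97.2 and 91.8 in tumors 1, 2 and 3, against percentiles 37.7, 17.4 and 16.6 in the wild-type samples. Tumor 2, with the lowest adipocyte sum of the 3 tumors, had the highest Klhl40 signal; the part of fat tissue in the Klhl40 signal was not tested. The gene was measured by a single probe set, so no other probe set could be set against it. The platform annotation pairs that probe set with Klhl40 through an expressed sequence tag, and whether it reads Klhl40 itself or a transcript overlapping Klhl40 or its neighbours was not checked here; this holds for every Klhl40 value given.

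**Figure D1:**
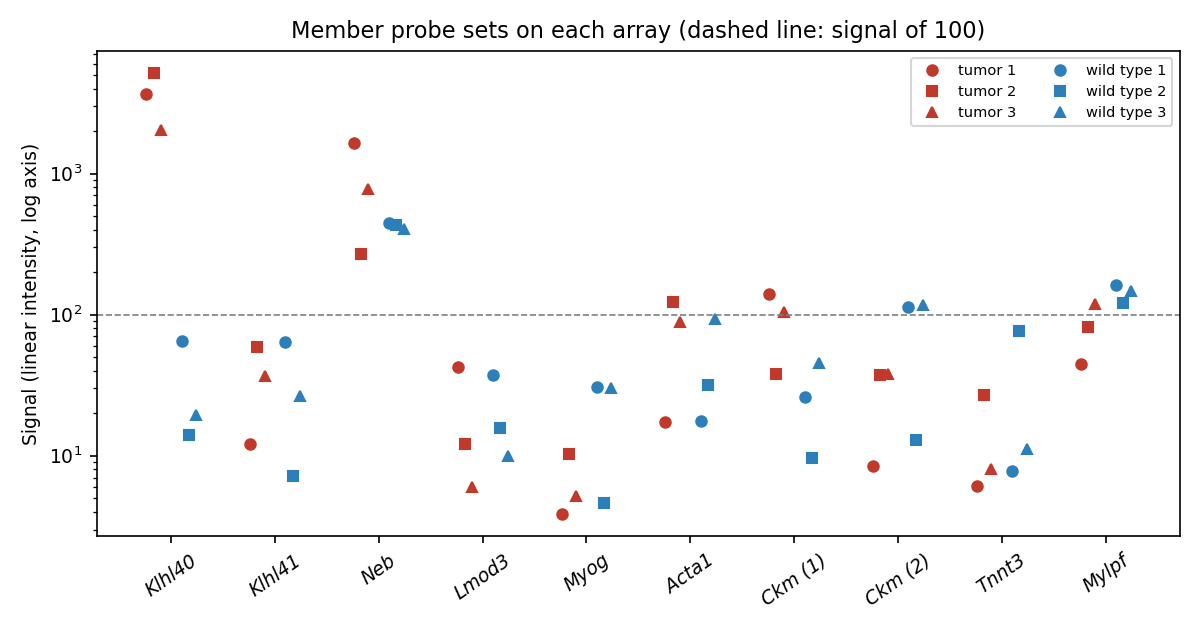
Signal of the 10 member probe sets on each of the 6 arrays (linear intensity on a log axis; red tumors, blue wild type; 1 point per array; dashed line at the signal minimum of 100). Klhl40 lies between 2046 and 5170 in tumors and at or below 65.5 in wild-type samples, Neb lies above 100 on every array, and the other probe sets stay at or below 163.

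Its partners did not share this pattern. Neb, the gene of the giant thin-filament protein nebulin, read 1637, 270 and 775 in tumors 1, 2 and 3, against 446, 429 and 403 in the wild-type samples. Tumors 1 and 3 lay above all wild-type samples and tumor 2 below all of them, so the groups overlapped. The means were 894 ± 692 in tumors and 426 ± 21.9 in wild-type samples (SD, n = 3 each). The log2 difference of 0.70 rested on tumor 1: it was 0.11 without that tumor, 1.34 without tumor 2, and -0.28 when the arrays were scaled to the bacterial hybridisation controls. Klhl40 was highest in tumor 2, where Neb was lowest, while the tumors with the high Neb signals were those with the high adipocyte sums; the part of fat tissue in the Neb values was not tested.

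Lmod3, the other partner, which promotes growth of thin filaments, read 42.7, 12.2 and 6.01 in tumors 1, 2 and 3 and 37.2, 15.6 and 9.90 in the wild-type samples. Klhl41, the nearest relative of Klhl40 among the members, read 12.0, 59.1 and 37.0 in tumors and 63.6, 7.20 and 26.6 in wild-type samples. Both genes stayed below the signal minimum of 100 on all 6 arrays, and the groups overlapped. Detection calls were not used, so such signals were not told apart from background here. Myog was dim as well, at 3.85, 10.4 and 5.15 in tumors and 30.8, 4.60 and 30.0 in wild-type samples. Without tumor 2, the log2 differences were 0.04 for Lmod3, -0.13 for Klhl41 and -0.52 for Myog, against -0.05, 0.11 and -0.45 with all 3 tumors.

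The contractile and metabolic genes of mature fibres showed no common direction. Acta1 read 17.2, 124 and 88.1 in tumors and 17.5, 31.6 and 93.6 in wild-type samples. The 2 Ckm probe sets disagreed in direction: 1 read 141, 37.9 and 105 in tumors and 26.2, 9.70 and 45.7 in wild-type samples, and the other 8.47, 37.3 and 38.2 in tumors and 113, 13.0 and 117 in wild-type samples. Tnnt3 stayed below 100 throughout, at 6.11 to 27.0 in tumors and 7.80 to 77.1 in wild-type samples. Mylpf read 44.6, 81.2 and 119 in tumors and 163, 121 and 147 in wild-type samples; all tumors lay below all wild-type samples, by 119 against 121 at the nearest, and the log2 difference was -0.68. These genes are abundant in skeletal muscle, yet no signal of the 7 genes other than Klhl40 and Neb exceeded 163, and 4 of their 24 tumor signals and 5 of their 24 wild-type signals reached 100. Without tumor 2, the log2 differences were 0.07 for Acta1, 1.43 and -0.89 for the 2 Ckm probe sets, -0.55 for Tnnt3 and -0.70 for Mylpf. Summed over the 8 probe sets of those 7 genes, signals were 276, 389 and 407 in tumors 1, 2 and 3 and 459, 280 and 481 in the wild-type samples.

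Counted over the 10 probe sets, the tumor mean was higher in 5 and lower in 5. All 3 tumors lay above all 3 wild-type samples for 1 probe set, that of Klhl40, and below them for 1, that of Mylpf, while 14.9% and 17.9% of all probe sets with 1 gene symbol did so. Of the 9 genes, 3 passed the filter, which asked for signals of 100 or more on 3 or more arrays: Klhl40, which passed only through the tumors, Neb and Mylpf. The other 6 did not pass.

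Among other skeletal muscle genes that were tested, the shares that rose and fell were near those of all tested genes. From textbook lists of 107 such genes besides the members, 99 were on the array and 30 passed the filter. Of these 30, 5 rose, 3 fell and 22 did not pass the test, where 14.5% of all tested genes rose and 12.6% fell (limma, Benjamini-Hochberg adjusted p under 0.05). Their median log2 fold change was 0.16, against -0.0049 over all 11611 tested genes. The number that rose lay between 1 and 5 without 1 sample at a time, being 1 without wild-type replicate 1 and 3 without tumor 1, tumor 2 or wild-type replicate 2. The number that fell lay between 1 and 3, being 1 without any 1 of the 3 wild-type samples. Over the brightest probe sets of all 99 genes, dim ones included, the 3 tumors lay above the 3 wild-type samples in 11.1% and below them in 17.2%, against 17.4% and 17.5% of all named genes.

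Among sarcomere genes, 1 of 6 tested rose and 0 fell at adjusted p under 0.05, against 14.5% and 12.6% of all tested genes. Tnnc1, the troponin C of slow and heart muscle, read 814, 485 and 364 in tumors and 73.5, 152 and 144 in wild-type samples, a log2 fold change of 1.89 (adjusted p = 0.00774 in limma, SE 0.33). The other 29 sarcomere genes on the array did not pass the filter, and their signals had a median of 15.4 in tumors and 19.0 in wild-type samples. Myh4, the myosin heavy chain of the fastest fibres, read 8.72 to 33.8 in tumors and 8.90 to 45.7 in wild-type samples.

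Among 12 tested genes of excitation, the nerve-muscle junction and energy supply, 2 rose and 2 fell, against 14.5% and 12.6% of all tested genes. Slc2a4, the insulin-responsive glucose transporter of muscle and fat, read 297, 185 and 236 in tumors and 35.9, 19.1 and 162 in wild-type samples (log2 fold change 1.61, adjusted p = 0.0433 in limma, SE 0.47). That call was lost without any 1 sample other than wild-type replicate 3, with adjusted p up to 0.135. Chrnb1, an acetylcholine receptor subunit gene named outside the rule after its values were seen, was the other gene that rose. Cox7a1, a muscle form of a cytochrome oxidase subunit, fell by 1.38 (adjusted p = 0.0273 in limma, SE 0.35), and Phka1, a phosphorylase kinase subunit of muscle, fell by 0.57 (adjusted p = 0.0363 in limma, SE 0.16). The Cox7a1 call was lost on leaving out any 1 wild-type sample and that of Phka1 on leaving out any 1 of the 6 samples, with adjusted p up to 0.0837 and 0.104.

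Of 12 tested regulators and other muscle genes, 2 rose and 1 fell, against 14.5% and 12.6% of all tested genes. Des, the muscle intermediate filament gene shared with smooth muscle, read 750, 609 and 159 in tumors and 41.3, 78.9 and 34.0 in wild-type samples, at least 4.18-fold higher in tumors (limma adjusted p = 0.0138); without wild-type replicate 1 its adjusted p was 0.053. Itga7, a laminin-binding integrin of striated and smooth muscle, rose by 1.66 (adjusted p = 0.0338 in limma, SE 0.45), with adjusted p up to 0.103 and the call lost without tumor 1, tumor 2 or wild-type replicates 1 or 2. Myf5, an early myogenic factor related to Myog, read 39.5, 54.8 and 26.4 in tumors and 112, 177 and 135 in wild-type samples, at least 1.39-fold lower in tumors (limma adjusted p = 0.00647). Myod1, of the same family and named after its values were seen, did not pass the filter, at 4.81 to 16.7 in tumors and 55.0 to 61.6 in wild-type samples.

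Smooth muscle and pericyte genes gave a different picture, with 22 of 25 tested higher, 0 lower and 3 that did not pass, and a median log2 fold change of 1.98. Of all tested genes, 14.5% rose and 12.6% fell. Between 16 and 22 of the smooth muscle and pericyte genes rose without 1 sample at a time. Their summed signals were 75222, 70871 and 43733 in tumors 1, 2 and 3, against 13151 to 16696 in wild-type samples. Pgm5, a protein of muscle adhesion sites, was at least 8.39-fold higher in tumors (limma adjusted p = 0.00106). Tumor 3 had the lowest smooth muscle sum and the lowest Klhl40 signal, but the order of tumors 1 and 2 differed between them; the part of smooth muscle cells in the Klhl40 signal was not tested. Des and Ldb3 stand on both this list and a skeletal one. Without the genes that are also on the smooth or heart muscle lists, 3 of 25 tested skeletal genes rose, a count chosen after seeing the data. The 3 skeletal genes that fell, Cox7a1, Phka1 and Myf5, are on neither of those lists.

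**Figure D2:**
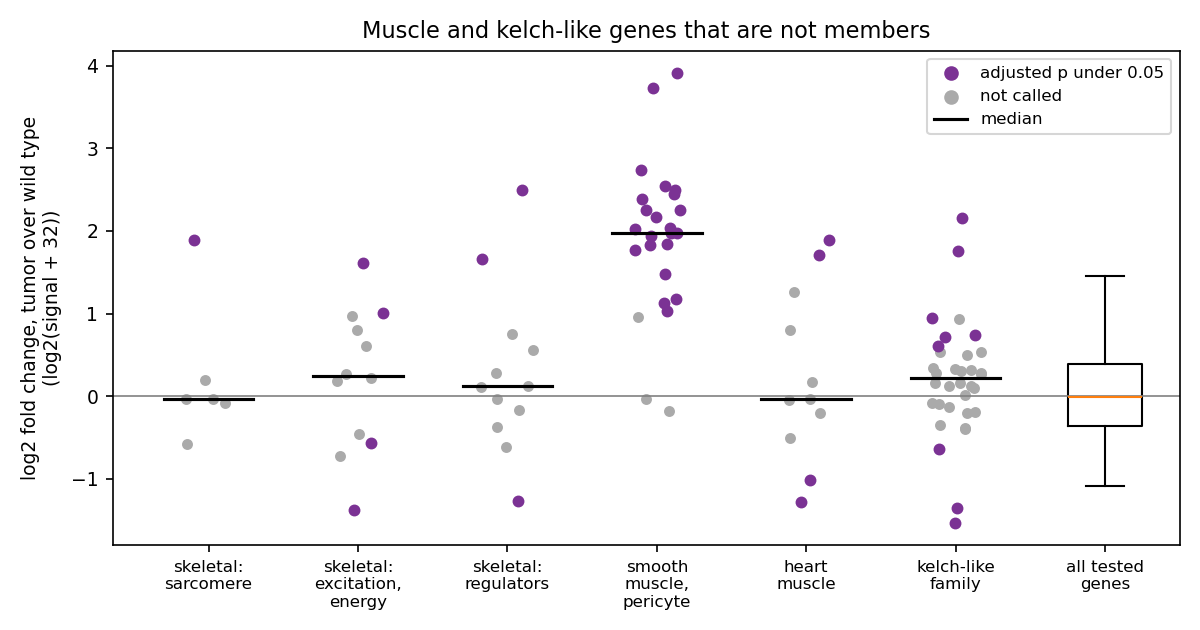
Log2 fold change of tumors over wild type on the log2(signal + 32) scale for tested genes on lists that leave out the members (1 point per gene, purple where limma's adjusted p was under 0.05, black line at the list's median); the box shows all 11611 tested genes, with whiskers at the 5th and 95th percentiles. The smooth muscle list has a median of 1.98, and the 3 skeletal lists have medians of -0.03, 0.24 and 0.12.

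Kelch-like relatives of Klhl40 moved either way. Among 34 tested relatives, 6 rose and 3 fell, shares near the 14.5% of all tested genes that rose and the 12.6% that fell. The other 25 relatives missed the threshold, and the median log2 fold change of the 34 was 0.22. Without tumor 2, or without wild-type replicates 1 or 3, 2 of them rose, and without wild-type replicates 1 or 3, 1 fell. Over the brightest probe sets of all 42 relatives on the array, all 3 tumors lay above the wild-type samples in 26.2% and below in 11.9%. Of all named genes, 17.4% and 17.5% did so. Klhl6, a gene of lymphoid cells, read 268, 243 and 316 in tumors and 61.1, 6.50 and 57.1 in wild-type samples, at least 2.74-fold higher in tumors (limma adjusted p = 0.00537). Klhl29 was at least 1.19-fold higher (limma adjusted p = 0.00176), with signals of 106 to 135 in tumors and 2.90 to 24.2 in wild-type samples. Enc1, a kelch gene of ectodermal and neural tissue, fell by 1.53 (adjusted p = 0.0162 in limma, SE 0.33), a call lost without wild-type replicates 1 or 3 (adjusted p = 0.0618 and 0.0557). Klhl30, a muscle relative named after its values were seen, did not pass the filter but read 64.1, 173 and 173 in tumors and 8.70, 10.8 and 56.9 in wild-type samples. All 3 tumors lay above all 3 wild-type samples for this gene, as they did for 17.4% of all named genes. Its lowest tumor came close to its highest wild-type sample.

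The 2 genes adjacent to Klhl40 on chromosome 9 also had higher signals in all 3 tumors, by their brightest probe sets. So did 17.4% of all named genes. The 6 protein-coding genes before Klhl40 and the 6 after it in RefSeq order were taken by position alone. This was done after the Klhl40 values were known. Of these 12, 11 had a probe set and 6 were tested: 1 rose, 0 fell and 5 did not pass, a share of higher genes near the 14.5% of all tested genes. The gene that rose was Zfp651, which lies next to Klhl40 and encodes a zinc-finger protein. It read 1200, 1124 and 758 in tumors and 334, 317 and 339 in wild-type samples, a log2 fold change of 1.52 (adjusted p = 0.00263 in limma, SE 0.20). Another Zfp651 probe set read 480, 626 and 296 in tumors and 120, 124 and 114 in wild-type samples, and the remaining one was dim and did not separate the groups. Hhatl, on the other side of Klhl40 and a relative of the Hedgehog acyltransferase gene, read 164, 149 and 99.2 in tumors and 49.1, 49.6 and 42.3 in wild-type samples. It did not pass the filter because only tumors 1 and 2 reached 100; with no filter its log2 difference of 1.08 had a limma adjusted p of 0.0201.

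Tumor 3 had the lowest tumor signal of Klhl40, Hhatl and both bright Zfp651 probe sets. The neighbours that did not pass the test differed in this, by their brightest probe sets. Sec22c, at 209, 238 and 80.4 in tumors 1, 2 and 3, and Ss18l2, at 878, 890 and 775, were also lowest in tumor 3. Nktr, at 1208, 1066 and 1193, and Ccdc13, at 112, 99.1 and 116, were lowest in tumor 2. Higd1a, at 2200, 3194 and 3590, was lowest in tumor 1. One gene further out on each side no gene was called: Nktr, a cyclophilin-related gene, had a log2 fold change of -0.35 (limma adjusted p = 0.263) and Ccdc13, a coiled-coil gene, 0.52 (limma adjusted p = 0.234). Higd1a, a hypoxia-induced mitochondrial gene beyond Ccdc13, had a log2 fold change of -0.53 (limma adjusted p = 0.111). By their brightest probe sets, Ss18l2, Nktr and Higd1a were lower in all 3 tumors, as were 17.5% of all named genes. Vipr1, a neighbour further out with signals below 100 on every array, was higher in all 3 tumors by its brighter probe set. Its other probe set overlapped between the groups, with a log2 difference of -0.10. Scaled to the bacterial hybridisation controls, Zfp651 had a log2 fold change of 0.54 and lost its call (limma adjusted p = 0.174), where the median of all genes was -0.98.

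**Figure D3:**
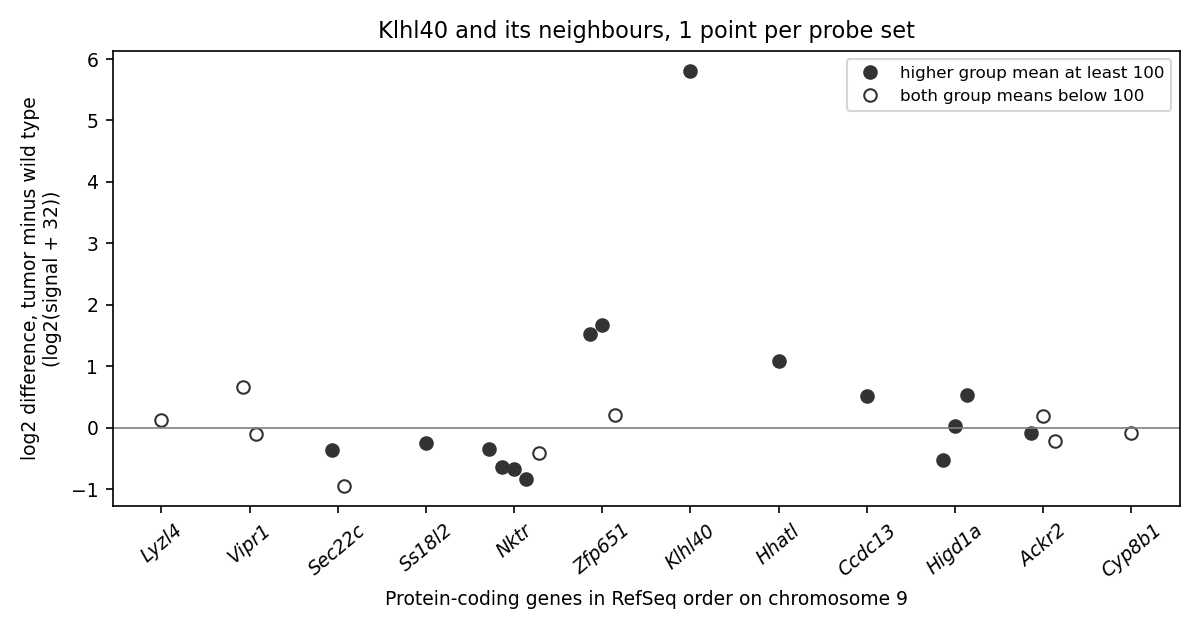
Log2 difference of tumors minus wild type on the log2(signal + 32) scale for each probe set of Klhl40 and of its neighbours, in RefSeq order along chromosome 9 (filled points where the higher group mean was at least 100, open points where both were below). Klhl40 stands at 5.80, the 2 bright Zfp651 probe sets at 1.52 and 1.66 and Hhatl at 1.08.

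The 5 tested genes with profiles nearest that of Klhl40 are given as a description. Likeness was the root mean square difference of log2(signal + 32) over the 6 arrays after each profile was centred on its own mean, and 11610 tested genes were ranked by it. Since this measure follows the gap between the groups, the nearest genes share with Klhl40 a large difference between tumors and wild-type samples. By that difference, tumors minus wild type, Klhl40 ranked 2 among all tested genes. Of the other members, only Neb and Mylpf passed the filter and were among the ranked genes. The remaining member probe sets were only set against that ranking, and their places rest on dim signals. Genes with a small gap were bound to lie far from Klhl40, so the ranking cannot test a shared muscle program. The nearest was Mapk10, which encodes the stress kinase JNK3, at a distance of 0.74; it read 3012, 6019 and 3065 in tumors and 160, 128 and 127 in wild-type samples, with the highest value in tumor 2 as for Klhl40. Next came Tmem184a at 1.00, Thrsp, a lipogenic regulator, at 1.00, Srpx2 at 1.05 and Eya4, a transcriptional coactivator, at 1.06. Tmem184a and Thrsp were highest in tumor 1, at 6435 and 2197, while Srpx2 and Eya4 were highest in tumor 2. Eya4 read 2102, 4204 and 2111 in tumors and 95.9, 115 and 200 in wild-type samples.

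The other 9 member probe sets lay at distances of 2.51 to 3.35, around the median of 2.95 over all tested genes. A flat profile would lie at 2.94. The closest was the first Ckm probe set, with 10.5% of tested genes nearer to Klhl40, followed by Neb at 2.74, with 23.3% nearer. The farthest was the second Ckm probe set, with 90.7% nearer. Neither Ckm probe set passed the filter, so both places rest on signals near or below the signal minimum.

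**Figure D4:**
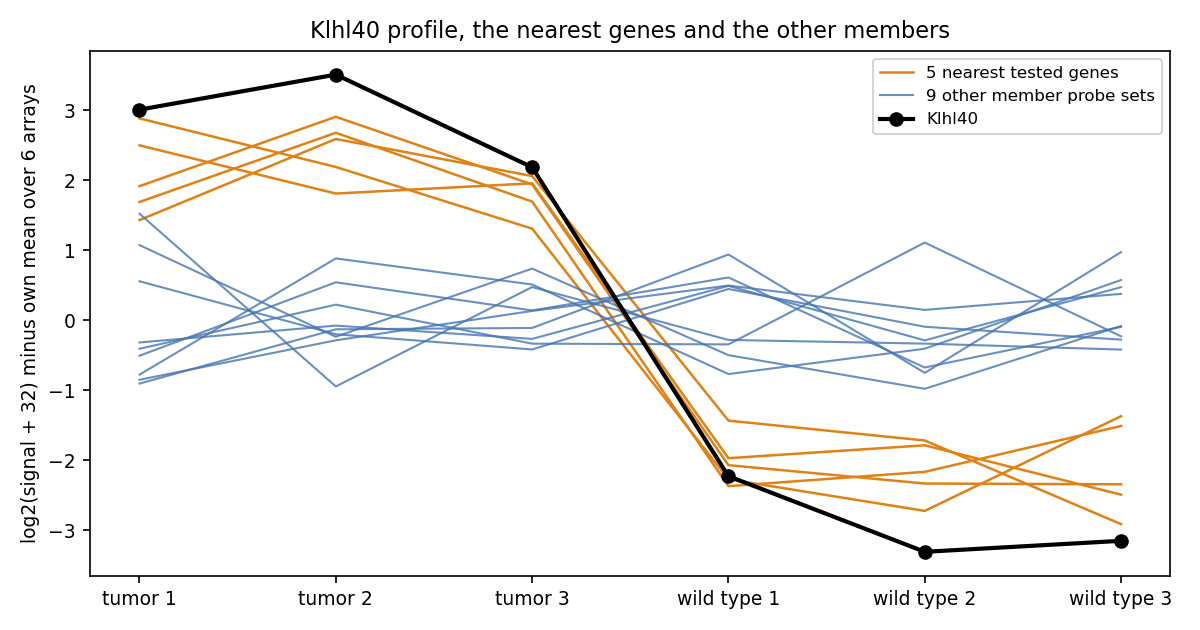
Profile of Klhl40 over the 6 arrays (black), of the 5 tested genes nearest to it (orange) and of the other 9 member probe sets (blue), as log2(signal + 32) minus each profile's own mean. The nearest genes lie at distances of 0.74 to 1.06 from Klhl40 and the members at 2.51 to 3.35.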

How the data were processed

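RNA of 6 samples was measured on 1 Affymetrix array each. The deposited values are linear intensities, 1 signal per probe set and array, made with GCOS (tumors) and MAS5 (wild type), per the submitters' processing notes, with no version given. Each array had a 2% trimmed mean of 500 and was scaled to it again. GEO's platform annotation gave 34945 of 45101 probe sets 1 symbol, 932 several and 9160 none, with 64 control probe sets left out; RefSeq identifiers changed 0 symbols. Detection calls were not used here, and the number of arrays limits precision.

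Values were tested as log2(signal + 32) with limma 3.58.1 in R 4.3.3 (lmFit, eBayes, 2-sided) over 11611 genes with signals of 100 or more on 3 or more arrays, the brightest probe set standing for a gene. Benjamini-Hochberg adjustment ran over all tested genes. The scale understates changes of dim genes. Folds written "at least" set the dimmer group to 100 where all its arrays lay below it. Named genes are all members, per list the 2 called genes with the largest change and the largest opposite one, and the 5 nearest profiles. Members and lists were chosen with earlier results of these data known. The fit was tested on simulated data. Python 3.11.15 and matplotlib 3.10.9 drew the figures. Numbers in sample titles pair nothing in the labels: deviations of same-numbered samples from their group means correlated at -0.04, 0.03 and 0.09 across genes.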

Additional observations from a re-analysis of the deposited data

How the results depend on the processing

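The signal over background limits most members: 7 of the 10 member probe sets did not pass the filter, and their differences depend on the pseudocount. The Klhl40 difference of 5.80 was 6.95 with a pseudocount of 1, 4.73 with 100, 5.00 scaled to the bacterial hybridisation controls, and 5.49 to 6.16 without 1 sample at a time. Neb gave 0.11 to 1.34 without 1 sample and -0.28 under hybridisation scaling. That scaling moved the median of all genes to -0.98 and gave 416 higher and 7544 lower genes instead of 1686 and 1468; higher and lower counts became 3 and 15 for skeletal, 1 and 6 for heart and 2 and 16 for kelch-like genes, 1 and 12 for Cul3 and thin-filament partners, and 2 smooth muscle genes were then lower; Srf turned to -0.41 there. Testing each probe set gave 2597 lower probe sets over all, 5 for skeletal and 8 for kelch-like genes. With a filter at 200, 1 skeletal gene rose, and with no filter 3 kelch-like genes and 1 partner gene did. Without genes shared with the smooth or heart lists, 3 skeletal genes rose, and the skeletal genes that fell were the same. Without 1 sample at a time, counts ran from 866 to 1704 higher and 662 to 1409 lower genes in all (866 and 662 when wild-type replicate 1 was left out, 1092 and 880 for wild-type replicate 3), 1 to 5 and 1 to 3 for skeletal, 2 to 6 and 1 to 4 for kelch-like, and 1 to 2 and 0 to 1 for partner genes. With the replicate block, 1 partner gene rose instead of 3, 1464 genes were higher and 1138 lower in all, and Klhl40 stayed at 5.80. The numbers share no stated origin. Of 28 named genes, those picked from the lists and Zfp651, 19 kept their call and direction in every one of the 14 alternatives that gave a value. The members and the nearest profiles were not in this count.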

Other observations

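Heart muscle genes moved either way: among 11 tested, 2 rose and 2 fell, and 7 missed the threshold (limma adjusted p under 0.05). Of all tested genes, 14.5% rose and 12.6% fell. The median log2 fold change of the heart genes was -0.03. Popdc2, a membrane protein gene of striated muscle, read 772, 1154 and 636 in tumors and 192, 276 and 228 in wild-type samples, a log2 fold change of 1.72 (adjusted p = 0.00362 in limma, SE 0.24). Mybpc3, the heart form of myosin-binding protein C, fell by 1.29 (adjusted p = 0.00515 in limma, SE 0.20), with 352, 214 and 250 in tumors and 780, 624 and 695 in wild-type samples.

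Of 17 tested genes of the Cul3 ligase machinery and of thin-filament partners and regulators, 3 rose, 0 fell and 14 did not pass (limma). Their median log2 fold change was 0.17, and 14.5% of all tested genes rose and 12.6% fell. Over the brightest probe sets of all 22 genes on the array, all 3 tumors lay above the wild-type samples in 31.8% and below in 13.6%. Of all named genes, 17.4% and 17.5% did so. Nexn, a protein of actin filaments in muscle, read 2788, 2908 and 970 in tumors and 322, 459 and 332 in wild-type samples, a log2 fold change of 2.35 (adjusted p = 0.00793 in limma, SE 0.42). Srf, the transcription factor that binds CArG boxes, had a log2 fold change of 0.59 (adjusted p = 0.0315 in limma, SE 0.16), which was lost without any 1 sample other than wild-type replicate 2, with adjusted p up to 0.126, and turned to -0.41 under hybridisation scaling. Cul3 itself, named after its values were seen, had a log2 fold change of 0.17 (limma adjusted p = 0.37).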
